A study of Mus musculus with 42 samples.

Results

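The genes that carry the signal of insulin and of insulin-like growth factors (IGFs) from the cell surface to phosphoinositide 3-kinase (PI3K) were examined on 42 arrays of mouse tissue. The list named 8 genes, and every non-control probe with one of these names on the array was used. Probes were found for 7 of them, Insr, Igf1r, Irs1, Pik3r1, Pik3ca, Pik3cb and Pdpk1, and together they had 18 of the 41174 non-control probes. No probe carried the name Irs2 in the files used here, so this adaptor was not analysed. All 7 genes were above background in liver, muscle and fat, and all 7 were tested in each tissue.

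The mice were female C57BL/6 animals of 2 genotypes, wild-type (Wt) and Akt1+/-, which lack 1 copy of the kinase gene Akt1 in every tissue and were compared with wild-type littermates. Liver, quadriceps muscle and visceral fat were taken at 8 weeks, with 3 arrays per genotype and tissue, and at 35 weeks, with 4 arrays per genotype and tissue. These ages are those of the sample labels, and the methods place the older mice somewhat later. Each tissue thus had 14 arrays in 4 groups, and the labels number the replicates without saying how many animals they came from, so that p values measure the spread between arrays.

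Insulin and IGF bind receptor tyrosine kinases, which phosphorylate insulin receptor substrates, and these docking proteins recruit PI3K, a dimer of a regulatory and a catalytic subunit. PI3K makes a membrane lipid that brings the kinases Pdpk1 and Akt together, and Pdpk1 then phosphorylates Akt. Liver, skeletal muscle and fat are the classical insulin target tissues, with liver responding mainly through the insulin receptor and muscle and fat taking up glucose in response to insulin.

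A level here is the log2 intensity of a probe minus the 75th percentile of its array, so that a level of 0 is the 75th percentile, and levels of different probes were not set against each other. Akt1 itself was lower in Akt1+/- than in Wt arrays in every tissue. The difference was -0.67 ± 0.07 in liver (SE, n = 7 per genotype, limma adjusted p = 0.00228), -0.56 ± 0.07 in fat (limma adjusted p = 0.00439) and -0.58 ± 0.10 in muscle (limma adjusted p = 0.0764), and at neither age did the 2 genotypes overlap in any of the 3 tissues. With the replicate number as a block, Akt1 in muscle passed (limma adjusted p = 0.0381) and Akt1 in fat did not (limma adjusted p = 0.0701). From 56.5 to 68.6% of probes were well above background on an array, 12 slides were used, and 0 pairs of arrays were identical. All 6 of 6 liver, skeletal muscle and adipocyte markers were above background in their own tissue. One muscle array stood apart, replicate 3 of the 8-week Akt1+/- group, on which 6 of 6 liver markers were above background with a summed level of 5.41, against -1.46 to 2.10 on the other muscle arrays, -0.38 to 3.22 in fat and 10.89 to 11.40 in liver. It also had the lowest correlation with the rest of its group, 0.984 against up to 0.995 on other arrays. The summed level of the adipocyte markers was 9.999 to 10.64 in fat, 7.19 to 8.27 in muscle and 2.10 to 3.104 in liver, and that of the skeletal muscle markers was 11.67 to 12.12 in muscle, 3.84 to 6.56 in fat and -2.04 to -1.06 in liver. Fewer cells of a type and less RNA per cell cannot be told apart in these bulk samples.

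The largest differences in the series for these genes lay between tissues, and 4 of the 7 genes shared 1 order. By their brightest probes Igf1r, Irs1, Pik3ca and Pdpk1 were highest in muscle, intermediate in fat and lowest in liver. Each step was past an adjusted p of 0.05, the threshold used throughout, and this order was found for 10.9% of all genes. The step between fat and liver did not hold by every probe of Irs1 and Pdpk1. Pik3cb had another order, with fat above liver and liver above muscle. Apart from 1 slide with Akt1+/- liver and muscle arrays at 8 weeks, each slide held a single tissue. Tissues were thus compared almost wholly between slides. In each pair of tissues 5 of the 7 genes differed, against a background of 85.8% of 19954 genes between liver and muscle, 86.2% between liver and fat and 87.6% between muscle and fat, so that a difference between tissues was no particular feature of the list. The sequence just upstream of the start of these 5 genes is given to show what the 4 genes of the shared order and Pik3cb hold in common. The windows are the 250 bases before the RefSeq transcript start on GRCm38.p6, written from 5′ to 3′ on the strand of the gene, and capitals mark matches to any of 5 short motifs on either strand.
Igf1r (chr7:67952007-67952256, plus strand): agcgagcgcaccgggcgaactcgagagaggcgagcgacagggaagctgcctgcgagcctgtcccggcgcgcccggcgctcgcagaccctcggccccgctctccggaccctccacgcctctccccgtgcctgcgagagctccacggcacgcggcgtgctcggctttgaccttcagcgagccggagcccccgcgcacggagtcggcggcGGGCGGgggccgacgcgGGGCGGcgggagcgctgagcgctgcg
Irs1 (chr1:82291440-82291689, minus strand): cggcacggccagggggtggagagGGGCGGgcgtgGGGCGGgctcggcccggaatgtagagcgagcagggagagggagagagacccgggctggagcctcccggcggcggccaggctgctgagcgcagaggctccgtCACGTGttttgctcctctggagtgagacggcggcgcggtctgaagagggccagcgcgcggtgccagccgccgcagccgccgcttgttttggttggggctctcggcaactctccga
Pik3ca (chr3:32396815-32397064, plus strand): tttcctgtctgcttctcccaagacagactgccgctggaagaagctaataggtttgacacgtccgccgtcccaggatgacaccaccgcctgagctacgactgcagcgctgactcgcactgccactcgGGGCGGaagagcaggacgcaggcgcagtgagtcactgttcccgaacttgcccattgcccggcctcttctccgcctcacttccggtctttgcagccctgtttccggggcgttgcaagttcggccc
Pdpk1 (chr17:24141595-24141844, minus strand, the second of 2 listed starts): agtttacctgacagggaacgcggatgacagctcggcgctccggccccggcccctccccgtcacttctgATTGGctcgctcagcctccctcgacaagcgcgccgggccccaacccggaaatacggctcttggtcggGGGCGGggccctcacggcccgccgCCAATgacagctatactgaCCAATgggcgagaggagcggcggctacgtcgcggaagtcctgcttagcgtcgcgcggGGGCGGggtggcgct
Pik3cb (chr9:99140212-99140461, minus strand): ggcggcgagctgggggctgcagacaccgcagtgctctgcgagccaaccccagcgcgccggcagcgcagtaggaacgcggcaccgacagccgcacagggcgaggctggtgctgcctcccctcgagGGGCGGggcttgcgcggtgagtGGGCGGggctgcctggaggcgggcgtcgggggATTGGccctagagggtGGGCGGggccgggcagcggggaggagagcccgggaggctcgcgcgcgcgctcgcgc

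The motifs searched were the E-box CACGTG, the FoxO core GTAAACA, the cyclic AMP response element TGACGTCA, the GC box GGGCGG and the CCAAT box, whose letters are CCAAT. No 2 matches overlapped. All 5 windows held the GC box, which is in 32.7% of the 32851 listed promoters, and their GC content was 77.6% for Igf1r, 72.4% for Irs1, 61.6% for Pik3ca, 69.6% for Pdpk1 and 78.0% for Pik3cb, against a median of 52.4% over all listed promoters. Irs1 alone among the 5 held the E-box, 115 bases before the start, a motif in 6.02% of promoters. The window of Irs2, the member without a probe, also held the E-box, 44 bases before the start. The CCAAT letters, in 33.8% of promoters, were in the windows of Pdpk1 and Pik3cb. Outside the 5 they were in those of Irs2 and of the first Pik3r1 start. The window of the first listed Pdpk1 start, with a GC content of 46.4%, held none of the 5 motifs. Neither the FoxO core, found in 3.17% of promoters, nor the cyclic AMP response element, found in 1.55%, was in any of the 5 windows, which says only that these letters are not in these bases. The GC box was shared both by the 4 genes highest in muscle by their brightest probes and by Pik3cb, the 1 gene of the 5 that was lowest there. It was also in the first of 2 listed Pik3r1 windows (GC content 76.4%) and in the window of Irs2 (72.8%). The second Pik3r1 window (42.4%) did not hold it. The GC box was thus no particular feature of the 5 genes.

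**Figure D1:**
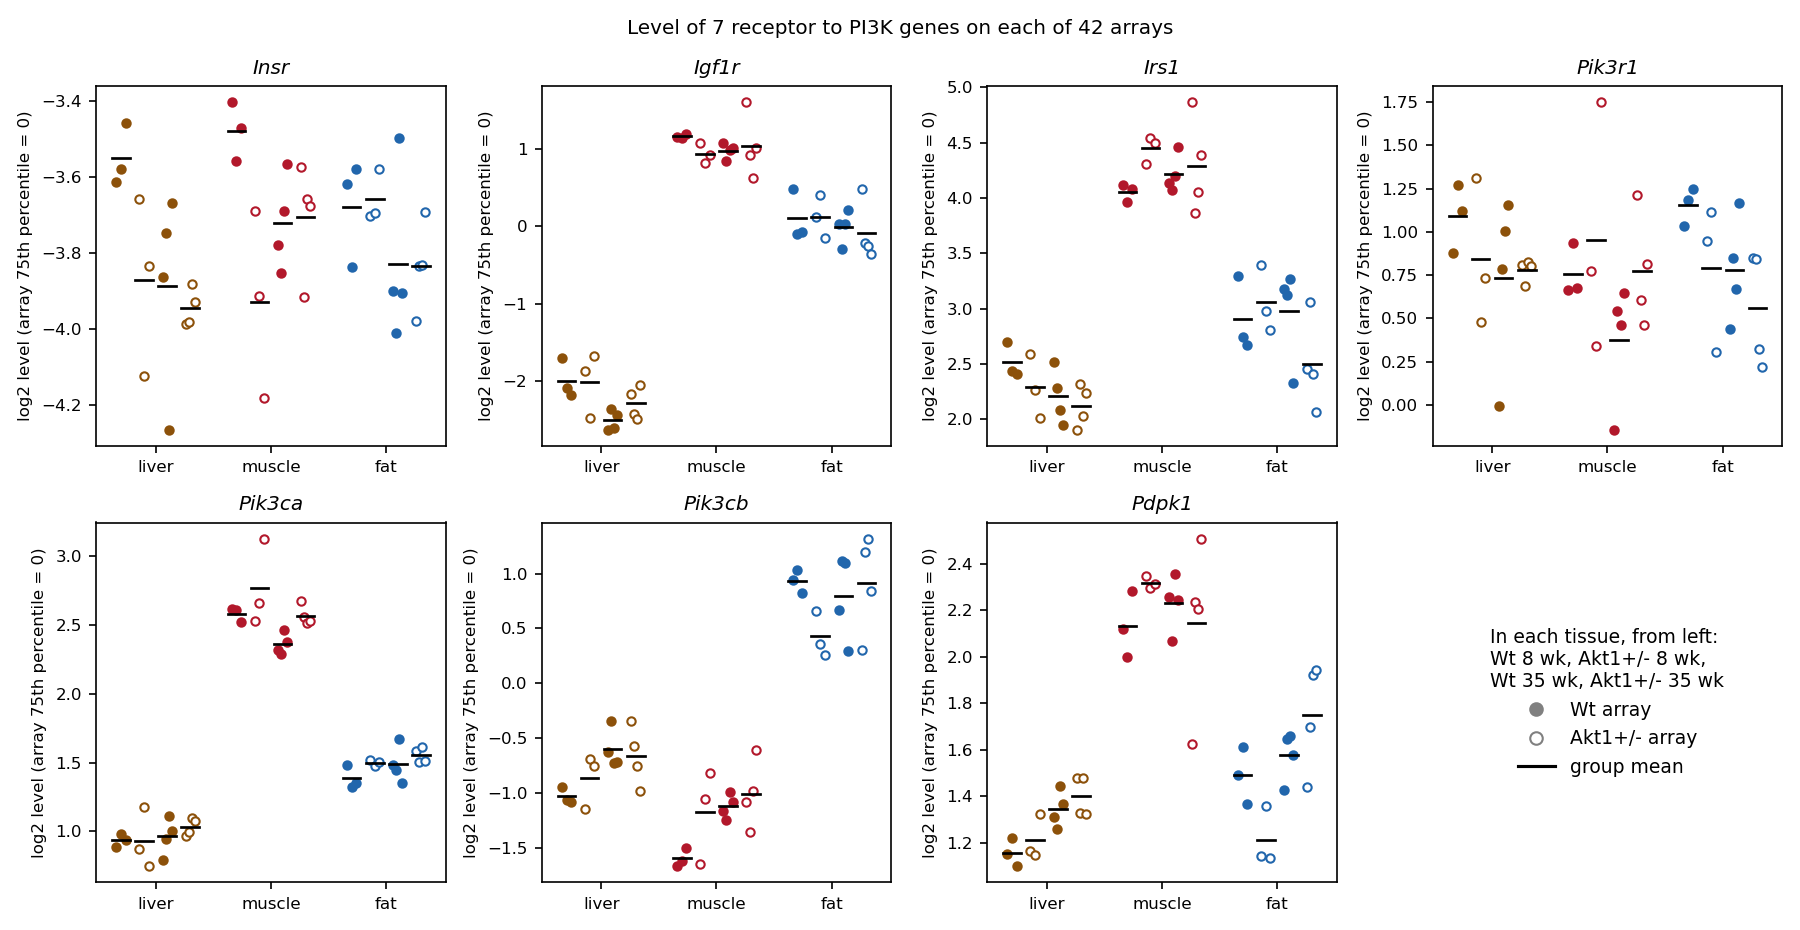
Level of the brightest probe of each gene on each of the 42 arrays, as log2 intensity relative to the 75th percentile of the array, by tissue, genotype and age. Igf1r and Pik3ca fall into 3 separate bands with muscle on top, Pik3cb is highest in fat, and Insr and Pik3r1 overlap across the tissues.

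Igf1r, the receptor of IGF-1, showed the widest separation. Its brightest probe had levels from 0.62 to 1.60 in muscle with a median of 1.01, from -0.35 to 0.49 in fat with a median of -0.02, and from -2.63 to -1.68 in liver with a median of -2.27, over 14 arrays each. The 3 tissues did not overlap on any array. Muscle was 9.39-fold above liver (log2 difference liver minus muscle -3.23 ± 0.10, limma adjusted p = 5.3e-25) and fat was 4.70-fold above liver (-2.23 ± 0.10, limma adjusted p = 3.24e-20). The step from fat to muscle was smaller, 1.995-fold (0.997 ± 0.10, limma adjusted p = 6.79e-11). The other 3 Igf1r probes gave the same order, by -2.71 ± 0.10 between liver and muscle for A_51_P318365. Probe A_52_P634111 (chr7:68101127-68101186 on mm8) was well above background on 14 of 14 muscle and 14 of 14 fat arrays and on 0 of 14 liver arrays, so that muscle was at least 7.56-fold and fat at least 2.55-fold above liver by this probe, each bound being set by the lowest signal above background on the liver arrays.

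Insr, the insulin receptor, did not differ between tissues past the threshold with all arrays. The single Insr probe had levels from -4.18 to -3.40 in muscle with a median of -3.68, from -4.01 to -3.50 in fat with a median of -3.77, and from -4.26 to -3.46 in liver with a median of -3.85. The 3 ranges overlapped. This probe was well above background on 14 of 14 arrays in each tissue but was dim. Its mean level over all 42 arrays was -3.77, where the median of all non-control probes on an array was -3.69 to -3.27. The liver minus muscle difference was -0.11 (95% interval -0.24 to 0.03, limma adjusted p = 0.13), liver minus fat -0.06 (-0.20 to 0.07, limma adjusted p = 0.358) and muscle minus fat 0.04 (-0.09 to 0.17, limma adjusted p = 0.546). Other settings gave a call for Insr. The liver minus muscle difference was -0.14 ± 0.06 (limma adjusted p = 0.0495) without replicate 3 of the 8-week Akt1+/- muscles, the array with the liver markers, and -0.20 ± 0.09 (limma adjusted p = 0.0379) on the 35-week arrays alone. With scaling to the array median, muscle minus fat was 0.18 ± 0.07 (limma adjusted p = 0.0179), where the median of all genes moved by 0.14. The Insr probe lies at chr8:3159473-3159532 on mm8. A further probe, A_52_P494514 (chr8:3151667-3151726), carries the name D630014A15Rik, an older symbol of Insr in RefSeq, and was no member by its name. It was lower in fat, by 0.43 ± 0.06 for liver minus fat (limma adjusted p = 1.73e-08 among all probes) and 0.58 ± 0.06 for muscle minus fat.

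Irs1, the docking protein through which both receptors reach PI3K, followed Igf1r in its order (probe at chr1:82112141-82112200 on mm8). Levels of the brighter Irs1 probe ran from 3.86 to 4.87 in muscle with a median of 4.17, from 2.07 to 3.40 in fat with a median of 2.90, and from 1.91 to 2.70 in liver with a median of 2.27. Every muscle array lay above every fat and liver array, while fat and liver overlapped. Muscle was 3.92-fold above liver (log2 difference liver minus muscle -1.97 ± 0.11, limma adjusted p = 1.82e-17) and 2.62-fold above fat (muscle minus fat 1.39 ± 0.11, limma adjusted p = 2.41e-13), and fat was 1.49-fold above liver (liver minus fat -0.58 ± 0.11, limma adjusted p = 2.07e-05). The second Irs1 probe, A_52_P171212, placed muscle above liver and fat by less (-0.52 ± 0.13 for liver minus muscle and 0.50 ± 0.13 for muscle minus fat) and showed no difference past the threshold between liver and fat (-0.02 ± 0.13, limma adjusted p = 0.870).

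The catalytic subunits of PI3K went in different directions. Pik3ca, the alpha catalytic subunit and the main PI3K isoform of insulin signaling, had levels from 2.29 to 3.12 in muscle, from 1.32 to 1.67 in fat and from 0.75 to 1.18 in liver, with medians of 2.52, 1.49 and 0.97 (probe at chr3:32655899-32655958 on mm8). No 2 tissues overlapped, and the 14 arrays of fat lay within 0.35 log2 units and those of liver within 0.43. Muscle was 3.04-fold above liver (liver minus muscle -1.60 ± 0.05, limma adjusted p = 9.1e-25) and 2.13-fold above fat (muscle minus fat 1.09 ± 0.05, limma adjusted p = 8.85e-20), and fat was 1.43-fold above liver (liver minus fat -0.51 ± 0.05, limma adjusted p = 4.39e-11). The second Pik3ca probe, A_52_P265002, gave the same order with smaller steps, -0.97 ± 0.07, 0.61 ± 0.07 and -0.35 ± 0.07.

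Pik3cb, the beta catalytic subunit, was the gene with the reverse pattern in muscle. Its levels ran from 0.26 to 1.32 in fat with a median of 0.83, from -1.14 to -0.34 in liver with a median of -0.74, and from -1.66 to -0.61 in muscle with a median of -1.12 (probe at chr9:98848047-98848106 on mm8). Every fat array lay above every array of the other tissues, and liver and muscle overlapped. Fat was 3.97-fold above muscle (muscle minus fat -1.99 ± 0.11, limma adjusted p = 2.16e-18) and 2.94-fold above liver (liver minus fat -1.55 ± 0.11, limma adjusted p = 2.16e-15), and liver was 1.35-fold above muscle (liver minus muscle 0.44 ± 0.11, limma adjusted p = 0.000306). The second Pik3cb probe, A_52_P581110, was well above background on 14 of 14 fat arrays and on 0 of 14 liver and 0 of 14 muscle arrays, so that fat was at least 2.05-fold above liver and at least 2.22-fold above muscle by it.

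Pik3r1, the gene of the main regulatory subunit, did not differ between tissues by its brightest probe with all arrays and differed by others. Levels of that probe ran from -0.14 to 1.75 in muscle, from 0.22 to 1.25 in fat and from -0.01 to 1.31 in liver, with medians of 0.65, 0.85 and 0.82 (probe at chr13:102786510-102786569 on mm8). The 3 tissues overlapped, and the differences were 0.15 ± 0.14 for liver minus muscle (limma adjusted p = 0.317), 0.04 ± 0.14 for liver minus fat (limma adjusted p = 0.780) and -0.11 ± 0.14 for muscle minus fat (limma adjusted p = 0.468). On the wild-type arrays alone this probe placed muscle below fat (-0.40 ± 0.17, limma adjusted p = 0.0370). The other 3 Pik3r1 probes each placed muscle above fat, by 0.42 ± 0.16, 0.51 ± 0.13 and 0.43 ± 0.14, all past the threshold. Between liver and muscle they disagreed, with 0.37 ± 0.16 for A_51_P511236 and -1.02 ± 0.13 for A_52_P235476, both past the threshold in opposite directions, and so they did between liver and fat, with 0.78 ± 0.16 and -0.52 ± 0.13. The array annotates A_52_P235476 to transcript variant 1 of Pik3r1 and the other 3 probes to transcript variant 2.

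Pdpk1, the kinase that phosphorylates Akt once PI3K is active, was highest in muscle. Its probe A_52_P619138 had levels from 1.63 to 2.51 in muscle, from 1.13 to 1.94 in fat and from 1.10 to 1.48 in liver, with medians of 2.25, 1.53 and 1.32. Muscle and liver did not overlap, and fat overlapped both. Muscle was 1.90-fold above liver (liver minus muscle -0.93 ± 0.06, limma adjusted p = 4.34e-15) and 1.62-fold above fat (muscle minus fat 0.70 ± 0.06, limma adjusted p = 6.98e-12), and fat was 1.17-fold above liver (liver minus fat -0.23 ± 0.06, limma adjusted p = 0.0017). A second probe, A_52_P111397, gave this order with -1.43 ± 0.08, 1.05 ± 0.08 and -0.38 ± 0.08. The third, A_52_P111390, placed liver above fat by 0.77 ± 0.13 and did not separate liver from muscle (0.15 ± 0.13, limma adjusted p = 0.258), and the step between liver and fat was lost when the 3 probes were averaged (0.05 ± 0.06, limma adjusted p = 0.431).

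**Figure D2:**
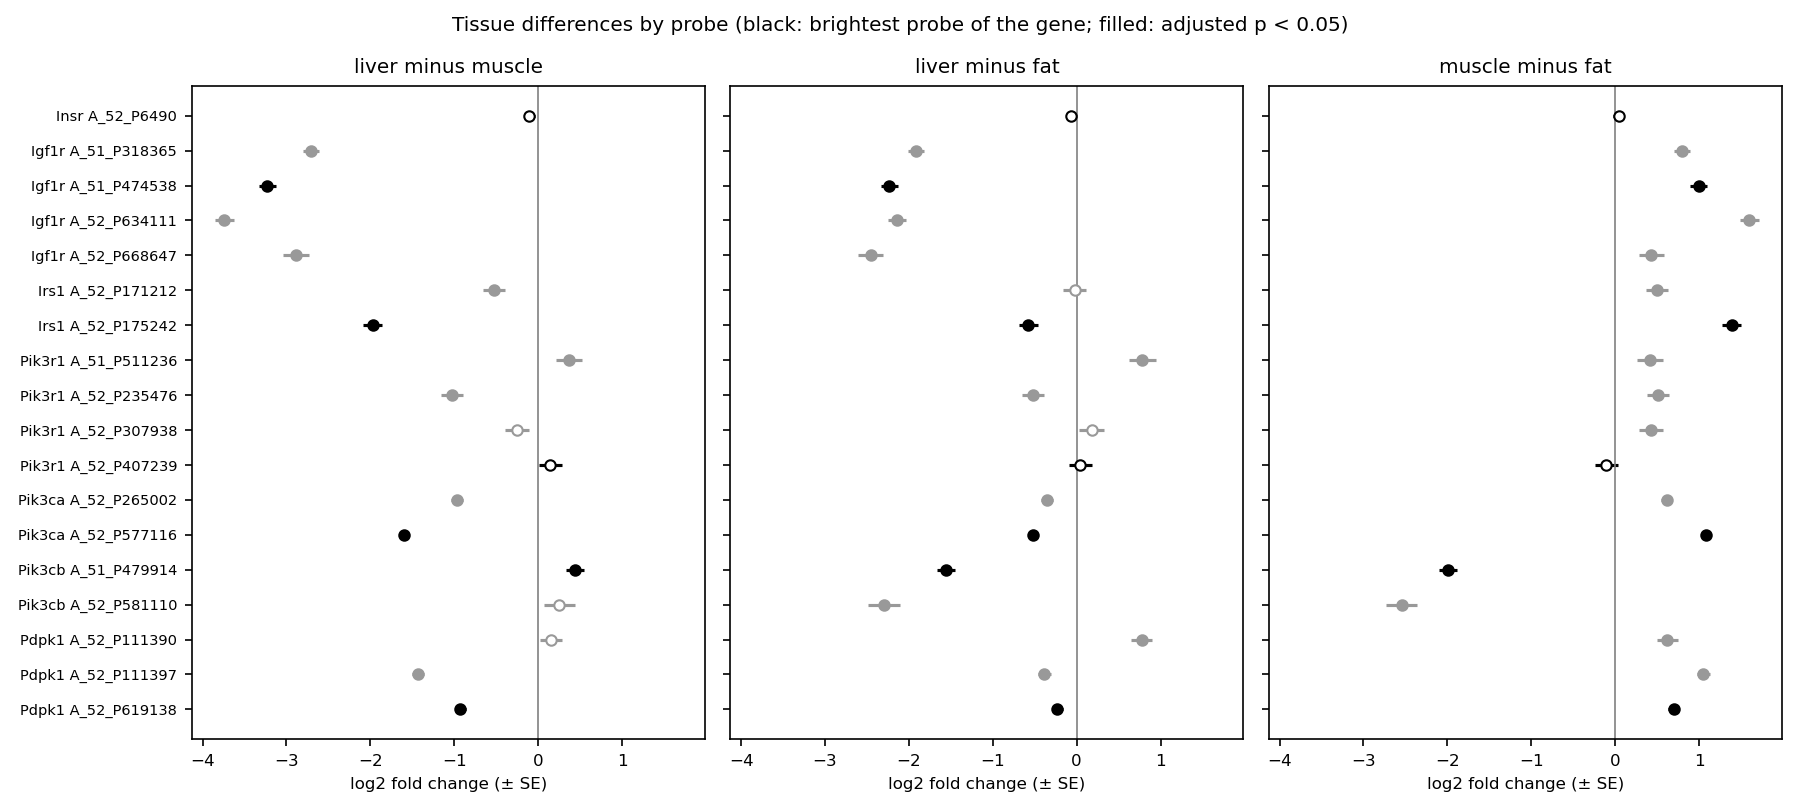
Differences between tissues for all 18 probes, as log2 fold change with its SE, for liver minus muscle, liver minus fat and muscle minus fat. The probes of Igf1r and Pik3ca agree in direction in all 3 panels. Those of Pik3r1 lie on both sides of 0 in all 3 panels and those of Pdpk1 in the panels with liver. Igf1r probes A_52_P634111 and A_52_P668647 were well above background on 0 and 5 of 14 liver arrays. Pik3cb probe A_52_P581110 was on 0 of 14 liver and 0 of 14 muscle arrays. These probes are drawn at their measured values, although only a bound holds there.

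By limma over every probe, 13 of the 18 probes differed between liver and muscle (background 85.7%), 14 between liver and fat (85.1%) and 16 between muscle and fat (87.2%). Counting arrays rather than means, 4 of the 7 genes did not overlap between liver and muscle, 3 between liver and fat and 4 between muscle and fat, against 47.6%, 41.7% and 47.1% of all genes. The median over the 7 genes was -0.93 for liver minus muscle, -0.51 for liver minus fat and 0.70 for muscle minus fat, where the medians of all genes were -0.06, 0.08 and 0.05. The called differences of Igf1r, Irs1, Pik3ca and Pik3cb between tissues passed in all 54 alternative analyses of each gene. These used its brightest probe or the mean of its probes, and 42 of them only left out 1 array each. Among the rest were the wild-type arrays alone, each age alone and a random slide effect. The called difference of Pdpk1 between liver and fat passed in 51 of 54. With the array median as the scaling point, the median of all genes moved by 0.14 in both comparisons with fat.

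A list of 33 other genes of the pathway, made of receptors, adaptors, PI3K and Akt isoforms and inhibitors and including Akt1, was examined alongside. Past the threshold were 29 of 33 between liver and muscle (15 lower and 14 higher in liver), 28 between liver and fat (20 lower and 8 higher in liver) and 29 between muscle and fat (18 lower and 11 higher in muscle), shares close to the backgrounds above. Pik3ip1, an inhibitor of PI3K, was lower in liver than in muscle (log2 difference -6.17 ± 0.13), as was Grb10, an adaptor that inhibits the insulin receptor (-3.39 ± 0.07). Ptprf, a receptor phosphatase, was 4.54 ± 0.06 higher in liver than in muscle. Between liver and fat the largest differences were those of the adaptor Irs3 (-4.90 ± 0.20) and of Grb10 (-4.79 ± 0.07), both lower in liver, and of Grb14, which like Grb10 inhibits the insulin receptor, at 4.17 ± 0.12 higher in liver. Between muscle and fat, Irs3 (-3.56 ± 0.20) and the leukocyte PI3K subunits Pik3r5 (-3.26 ± 0.11) and Pik3cg (-3.26 ± 0.20) were lower in muscle. The summed level of the macrophage markers was 7.62 to 8.08 in fat, 4.57 to 6.11 in muscle and 5.47 to 6.99 in liver, and its part in these differences was not tested.

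Genotype was the first factor of the design, and these genes upstream of Akt were compared between Akt1+/- and Wt. By limma over both ages, 0 of the 7 genes differed between Akt1+/- and Wt in liver, muscle or fat, where the backgrounds were 6.16%, 0.00% and 0.765% of all genes. At an unadjusted p below 0.05 there were 1 in liver (Pdpk1), 2 in muscle (Insr and Pik3ca) and 0 in fat. At 8 weeks limma called 0 of 7 in each tissue (backgrounds 2.10%, 0.00% and 1.81%, with 1, 1 and 0 at an unadjusted p below 0.05), and at 35 weeks again 0 of 7 (backgrounds 3.51%, 0.105% and 1.69%, with 0 in each at an unadjusted p below 0.05). The interaction of genotype and age was past the threshold for 0 of 7 genes in each tissue (backgrounds 0.562%, 0.00% and 1.50%, with 0, 1 and 1 at an unadjusted p below 0.05). Blocking on the replicate number left 0 of 7 genes past the threshold at 35 weeks in liver and in muscle. With this block the calls over all 17207 muscle genes at 35 weeks went from 18 to 106. At that age the number was also the position on the slide, so that the block cannot tell matched animals from shared positions. Over the 7 genes the median genotype difference was 0.03 for liver, 0.20 for muscle and -0.05 for fat, beside 0.01, -0.01 and -0.01 over all genes.

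The intervals around these differences varied from gene to gene. With both ages together, the genotype difference of Pik3ca had a 95% interval of -0.14 to 0.20 in liver, 0.01 to 0.38 in muscle and -0.04 to 0.22 in fat. That of Igf1r was -0.18 to 0.39 in liver, -0.35 to 0.18 in muscle and -0.37 to 0.31 in fat. The widest were those of Pdpk1 in liver, 0.07 to 1.12, and of Pik3r1 in muscle, -0.16 to 0.75, so that these were the least precisely measured. All arrays of a group at 35 weeks, and all liver arrays at 8 weeks, were on slides without an array of the other genotype, and there the slide cannot be told apart from the genotype.

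The receptor Insr, by its single dim probe, came closest to a genotype difference in muscle at 8 weeks. Its levels were -3.40, -3.56 and -3.47 in Wt and -3.69, -3.91 and -4.18 in Akt1+/-. Every Akt1+/- array lay below every Wt array, by -0.45 ± 0.13 on average (limma adjusted p = 0.169). On the slide that held 3 Wt arrays and 1 Akt1+/- array the difference was -0.21, and without that Akt1+/- array, replicate 1, the 8-week difference was -0.57 ± 0.13 (limma adjusted p = 0.0496). Replicate 3, the array with the liver markers, had the lowest Insr level, and without it the difference was -0.32 ± 0.12 (limma adjusted p = 0.527). At 35 weeks the Wt levels of -3.78, -3.85, -3.69 and -3.56 and the Akt1+/- levels of -3.57, -3.92, -3.66 and -3.68 overlapped, with a difference of 0.02 ± 0.11 (limma adjusted p = 0.981), and the change between ages was 0.47 ± 0.17 (limma adjusted p = 0.474). In liver at 8 weeks Insr was also lower on all 3 Akt1+/- arrays (-3.66, -4.12 and -3.83) than on the 3 Wt arrays (-3.61, -3.58 and -3.46), with a difference of -0.32 ± 0.15 (limma adjusted p = 0.25). It was the 1 gene of the 7 without overlap in that group, where 25.1% of all genes did not overlap. In these livers the summed level of the macrophage markers was 5.47 to 5.90 in Wt and 6.16 to 6.51 in Akt1+/- and that of the liver markers 11.30 to 11.40 and 10.96 to 11.11, and their part in the Insr values was not tested.

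In muscle at 8 weeks 4 of the 7 genes did not overlap between genotypes by their brightest probes, against 23.3% of all genes. In Akt1+/- 2 were lower (Insr and Igf1r) and 2 higher (Irs1 and Pdpk1). Irs1 was 4.11, 3.96 and 4.08 in Wt and 4.31, 4.54 and 4.50 in Akt1+/-, a difference of 0.40 ± 0.20 (limma adjusted p = 0.349), and of 0.25 within the shared slide. Igf1r was 1.16, 1.15 and 1.19 in Wt and 1.08, 0.82 and 0.92 in Akt1+/-, a difference of -0.23 ± 0.19 (limma adjusted p = 0.549), and of -0.08 within the shared slide. The receptor and the docking protein thus lay on opposite sides of Wt, and neither difference was past the threshold. The difference of Pdpk1 was 0.18 ± 0.17 (limma adjusted p = 0.608) by its brightest probe, A_52_P619138. The other 2 Pdpk1 probes went the other way, the lower at -0.12, and neither was past the threshold. Within the shared slide these were at 0.32 (A_52_P111390) and 0.09 (A_52_P111397). In the same muscles the summed level of the adipocyte markers was 7.19 to 7.45 in Wt and 7.51 to 8.22 in Akt1+/-, with 5 or 6 of 6 above background, and that of the macrophage markers was 4.57 to 5.58 in Wt and 5.59 to 6.11 in Akt1+/-, with 5 of 5 above background, and their part in these values was not tested. The liver markers summed to -0.71 to 1.96 in Wt and to -0.07, -1.03 and 5.41 in Akt1+/-. Without the array at 5.41, replicate 3, the 8-week differences were 0.37 ± 0.24 for Irs1, -0.22 ± 0.22 for Igf1r and 0.19 ± 0.20 for Pdpk1. At 35 weeks only Pik3ca did not overlap in muscle, where 5.47% of all genes did not, with 2.32, 2.29, 2.46 and 2.37 in Wt and 2.67, 2.55, 2.51 and 2.52 in Akt1+/- (0.21 ± 0.11, limma adjusted p = 0.618).

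In fat at 8 weeks 2 of the 7 genes did not overlap by their brightest probes, against 27.1% of all genes, and both were lower in Akt1+/-. The beta catalytic subunit Pik3cb had levels of 0.94, 1.03 and 0.83 in Wt and 0.66, 0.36 and 0.26 in Akt1+/-. All 3 Akt1+/- arrays lay below the lowest Wt array, and the difference was -0.51 ± 0.26 (limma adjusted p = 0.257), or -0.40 on the slide that held 1 Wt and 3 Akt1+/- arrays. At 35 weeks the levels of 0.67, 1.11, 1.10 and 0.29 in Wt and 0.30, 1.20, 1.32 and 0.84 in Akt1+/- overlapped, with a difference of 0.12 ± 0.23 (limma adjusted p = 0.902). The second Pik3cb probe, A_52_P581110, went the other way at both ages, 0.34 at 8 weeks and -0.32 at 35 weeks, neither past the threshold. On the shared slide it gave -0.14 at 8 weeks. Pdpk1 at 8 weeks was 1.49, 1.61 and 1.37 in Wt and 1.14, 1.36 and 1.13 in Akt1+/- (-0.28 ± 0.14, limma adjusted p = 0.233, and -0.15 on the shared slide). In the 8-week fat the mesothelial markers summed to 4.30 to 4.84 in Wt and 4.95 to 5.48 in Akt1+/-, with 4 of 4 above background, and the liver markers to 0.82 to 3.22 and -0.38 to 0.06, with 2 to 5 of 6 above background, and their part in the Pik3cb and Pdpk1 values was not tested. In fat at 35 weeks, where 9.82% of all genes did not overlap, and in liver at 35 weeks, where 12.8% did not, 0 of the 7 genes were without overlap.

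**Figure D3:**
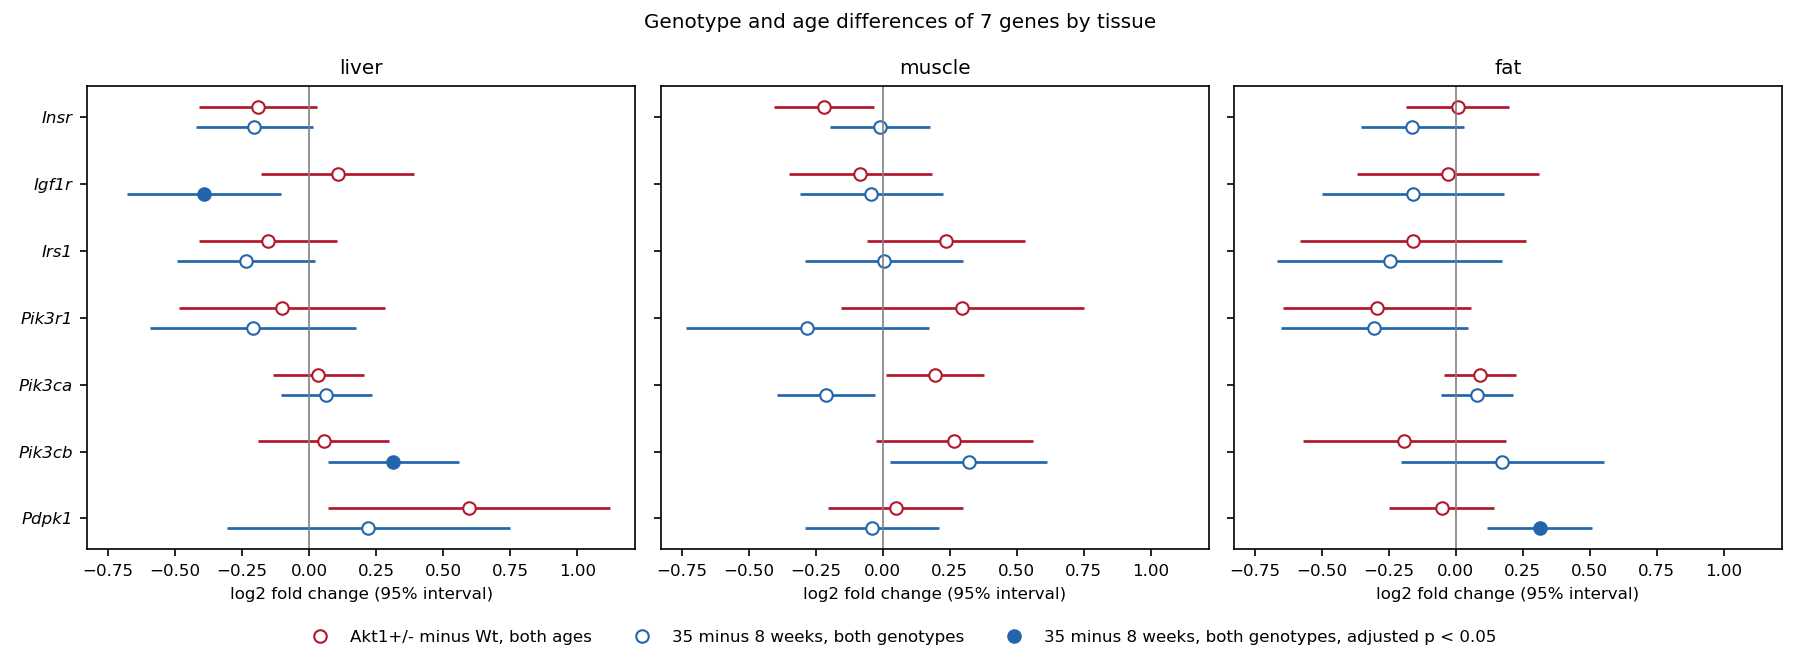
Genotype difference over both ages (red) and age difference over both genotypes (blue) of the 7 genes in each tissue, as log2 fold change of the brightest probe with its 95% interval; filled points passed an adjusted p of 0.05. No genotype difference is filled, and the 3 filled age differences are Igf1r and Pik3cb in liver and Pdpk1 in fat.

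Pdpk1 was the member whose probes gave the most different values for genotype. In liver its brightest probe was A_52_P111390, with Wt levels of 1.25, 1.04 and 1.12 and Akt1+/- levels of 2.66, 0.85 and 2.59 at 8 weeks. The 2 high arrays shared a slide that held no other array, and the low one was on another slide, and only 0.928% of probes lay as far apart between these arrays. At 35 weeks the Wt levels were 1.40, 1.39, 1.77 and 2.06 and the Akt1+/- levels 1.93, 1.97, 1.92 and 1.99. The genotype difference over both ages was 0.60 ± 0.24 (limma adjusted p = 0.144), and without the low array, replicate 2 of the 8-week Akt1+/- livers, it was 0.89 ± 0.11 (limma adjusted p = 0.00562). Without that array the 8-week difference, 0.89 ± 0.37 with it (limma adjusted p = 0.188), was 1.49 ± 0.17 (limma adjusted p = 0.00687), and the interaction with age was also past the threshold (-1.19 ± 0.22, limma adjusted p = 0.0424). The other 2 probes of Pdpk1 gave 0.17 ± 0.11 (A_52_P111397, limma adjusted p = 0.363) and 0.06 ± 0.06 (A_52_P619138, limma adjusted p = 0.623) for the same comparison.

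In fat the same probe A_52_P111390 was past the threshold when every probe was fitted. At 35 weeks its levels were 2.26, 1.94, 1.93 and 2.27 in Wt, all on 1 slide, and 1.16, 0.66, 0.59 and 0.52 in Akt1+/-, all on another. These 2 slides were scanned on different days. The groups lay apart by -1.37 ± 0.17 (limma adjusted p = 0.00129), the 1 call among the 18 member probes in that comparison, where the background was 1.22% of probes. On the same arrays the adipocyte markers, with 6 of 6 above background, summed to 10.44 to 10.64 in Wt and 9.999 to 10.32 in Akt1+/-, without overlap, and their part in this difference was not tested. At 8 weeks the Wt levels were 0.79 and 0.77 on a slide of their own and 0.23 on the slide shared with Akt1+/- arrays, whose levels were 0.19, 0.39 and 0.15, and within this shared slide the difference was 0.01. Over both ages the difference was -0.86 ± 0.13 (limma adjusted p = 0.016, background 0.547%). By the other 2 probes, the difference at 35 weeks was 0.17 ± 0.12 (A_52_P619138) and -0.03 ± 0.13 (A_52_P111397). In 3 groups, all at 8 weeks, 1 array lay on another slide than the rest of its group. By A_52_P111390 this array differed from the rest by -1.78 in Akt1+/- liver, 0.66 in Akt1+/- muscle and -0.55 in Wt fat. Of all probes, 0.928%, 6.74% and 16.2% differed by as much. No other member probe differed by more in liver. In muscle Pik3cb probe A_51_P479914 did (-0.71, 5.58% of probes). In fat Pik3cb probe A_52_P581110 (0.73, 9.54%) and Pik3r1 probe A_52_P307938 (0.70, 10.3%) did. The lone arrays in liver and fat were also scanned on another day than the rest of their group, and that in muscle on the same day. The part of the slide or scan day in the A_52_P111390 values was not tested. At 35 weeks no slide held arrays of both genotypes, which left no comparison within a slide. Probe A_52_P111390 lies at chr17:23834471-23834530 on mm8, and A_52_P619138 at chr17:23807168-23807227.

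**Figure D4:**
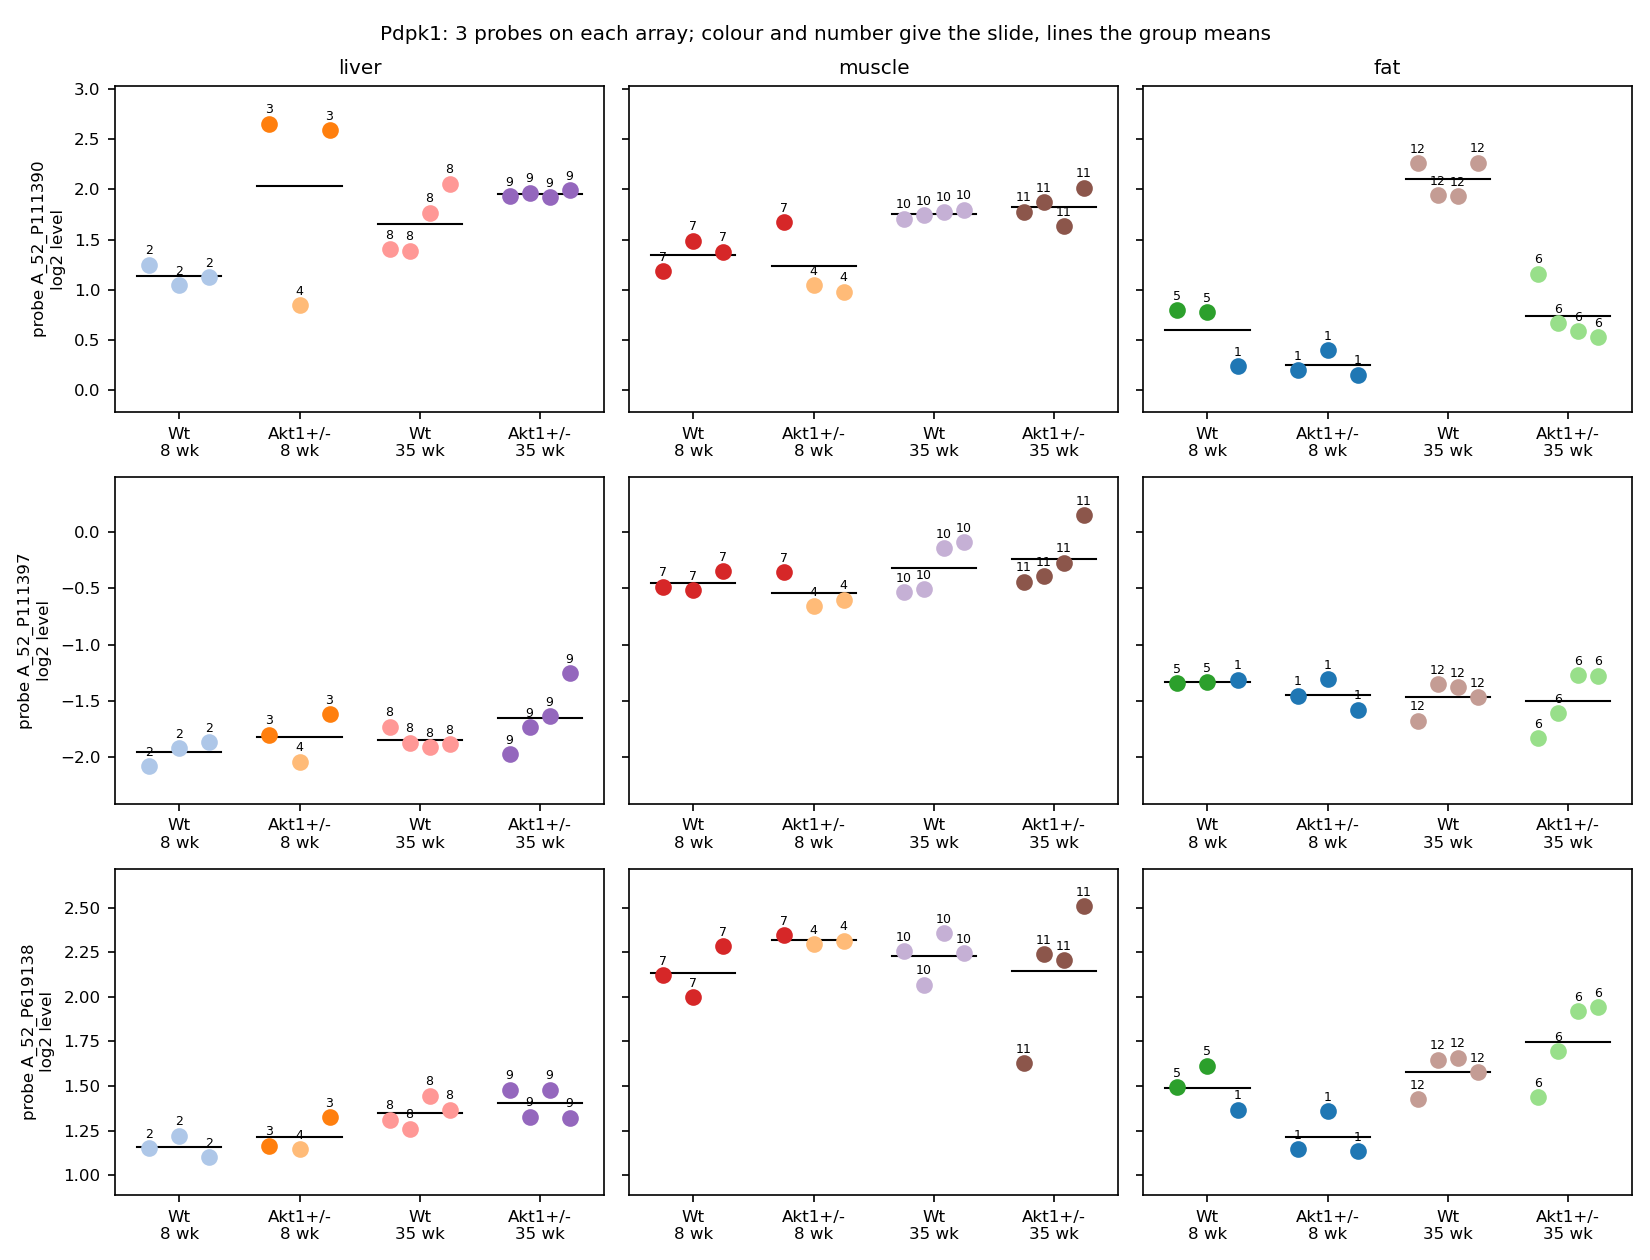
Levels of the 3 Pdpk1 probes on every array, as log2 intensity relative to the 75th percentile of the array, by tissue, age, genotype and slide. Probe A_52_P111390 separates the fat groups at 35 weeks and splits the 8-week Akt1+/- livers between slides, and the other 2 probes do neither.

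Among the 33 other pathway genes few differed by genotype. Past the threshold were 3 of 31 tested in liver with both ages together, 0 of 32 in muscle (4 at an unadjusted p below 0.05) and 1 of 33 in fat, and Akt1 was among them in liver and the only one in fat. Also past it in liver was Pik3cd, the leukocyte delta catalytic subunit, which was higher in Akt1+/- (0.45 ± 0.09, limma adjusted p = 0.0185). The summed level of the macrophage markers in liver was 5.47 to 5.90 in Wt and 6.16 to 6.51 in Akt1+/- at 8 weeks, and that of the lymphocyte markers 0.46 to 0.92 and 1.40 to 1.44. At 35 weeks they were 6.49 to 6.81 and 6.24 to 6.99 for macrophages and 1.56 to 1.94 and 1.21 to 2.28 for lymphocytes, and their part in the Pik3cd difference was not tested. The insulin receptor-related receptor Insrr was higher in Akt1+/- liver at 35 weeks (0.81 ± 0.19, limma adjusted p = 0.0362, or 0.104 with a random slide effect) and lower in Akt1+/- fat at that age (-0.75 ± 0.14, limma adjusted p = 0.0207, or 0.103 with the replicate block), and its genotype difference was itself different between liver and fat (0.88 ± 0.18, limma adjusted p = 0.00349).

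Age was the second factor. Between 8 and 35 weeks, with both genotypes together, 2 of the 7 genes differed in liver, where the background was 35.0%, 0 in muscle (background 30.9%, with 2 of 7 at an unadjusted p below 0.05) and 1 in fat (background 19.0%). By their brightest probes, Igf1r in liver fell by 0.39 on the log2 scale, Pik3cb in liver rose by 0.31 and Pdpk1 in fat rose by 0.31. No slide held arrays of both ages, so that age could be compared only between slides. Every probe was also fitted on its own. For genotype this called 0 of 15 member probes in liver (background 4.36%), 0 of 17 in muscle (0.00%) and 1 of 18 in fat, the probe above. At 8 weeks it called 0 in each tissue (1.57%, 0.00% and 1.64%), at 35 weeks 0 in liver (2.41%) and muscle (0.0628%), and for the interaction 0 in each (0.408%, 0.00% and 1.27%). For age it called 4 of 15 in liver (33.5%), 2 of 17 in muscle (30.6%) and 2 of 18 in fat (19.8%), and these are given gene by gene here. In no tissue did any of the 7 genes separate the 2 ages without overlap, as 7.69% of all genes did in liver, 9.84% in muscle and 4.48% in fat. Over the 7 genes the median age difference was -0.21 for liver, -0.04 for muscle and -0.16 for fat, beside 0.02, 0.0047 and 0.01 over all genes.

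Igf1r in liver went in opposite directions by 2 of its probes. By the brightest probe, A_51_P474538, the 8-week levels were -1.70, -2.10 and -2.19 in Wt and -1.87, -2.47 and -1.68 in Akt1+/-, and the 35-week levels were -2.63, -2.36, -2.61 and -2.44 in Wt and -2.17, -2.43, -2.49 and -2.05 in Akt1+/-. The older arrays were mostly lower, and 3 of the 6 younger arrays lay within their range. The age difference was -0.39 ± 0.13 (limma adjusted p = 0.0357). By A_51_P318365 the same livers gave 0.41 ± 0.13 (limma adjusted p = 0.0327 among all probes), with 8-week levels of -2.98, -3.36 and -3.81 in Wt and -3.30, -3.65 and -3.10 in Akt1+/- and 35-week levels of -3.30, -3.20, -3.24 and -3.23 in Wt and -2.45, -2.67, -2.99 and -2.58 in Akt1+/-. The mean of the probes gave 0.0071 ± 0.13 (limma adjusted p = 0.973), so that no direction can be given for Igf1r as a gene, and with a random slide effect the brightest probe was at -0.39 with a limma adjusted p = 0.0633. Leaving out any 1 of 8 livers, replicates 1 and 2 of the 8-week Wt, 1 and 3 of the 8-week Akt1+/-, 1 and 3 of the 35-week Wt and 2 and 3 of the 35-week Akt1+/- group, gave -0.42 to -0.31 with an adjusted p of 0.0512 to 0.0911. On mm8 the 2 probes lie at chr7:68105625-68105684 and chr7:68100183-68100242, both annotated to the same transcript.

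Pik3cb in liver was -0.94, -1.06 and -1.08 in Wt and -1.14, -0.69 and -0.75 in Akt1+/- at 8 weeks, and -0.62, -0.34, -0.73 and -0.71 in Wt and -0.34, -0.57, -0.75 and -0.98 in Akt1+/- at 35 weeks. In Wt the 2 ages did not overlap, and in Akt1+/- they did. The same held for the macrophage markers, which summed to 5.47 to 5.90 and 6.49 to 6.81 in Wt and 6.16 to 6.51 and 6.24 to 6.99 in Akt1+/- at the 2 ages, and for the lymphocyte markers, at 0.46 to 0.92 and 1.56 to 1.94 in Wt and 1.40 to 1.44 and 1.21 to 2.28 in Akt1+/-, and their part in the Pik3cb values was not tested. The age difference was 0.31 ± 0.11 (limma adjusted p = 0.0459), and it kept its direction and lost its call in 20 of 25 alternative analyses, among them the omission of any 1 liver other than replicate 2 of the 8-week and replicate 4 of the 35-week Akt1+/- group (0.24 to 0.34, limma adjusted p = 0.0511 to 0.118). Scaling to the array median moved the age difference of all genes in liver by -0.20 at its median, and on that scale Pik3cb was at 0.12 ± 0.11 (limma adjusted p = 0.412), while Insr (-0.40 ± 0.10, limma adjusted p = 0.00661) and Irs1 (-0.43 ± 0.11, limma adjusted p = 0.00860) passed the threshold. On the main scale Insr and Irs1 gave -0.21 ± 0.10 (limma adjusted p = 0.134) and -0.24 ± 0.12 (limma adjusted p = 0.143). In muscle Pik3cb differed between ages by a like amount, 0.32 ± 0.13 (limma adjusted p = 0.0884), and Pik3ca by -0.21 ± 0.09 (limma adjusted p = 0.0756), neither past the threshold. Without replicate 1 of the 8-week Akt1+/- muscles Pik3ca passed (-0.27 ± 0.08, limma adjusted p = 0.0238), and Pik3cb passed with the replicate block (limma adjusted p = 0.0477) and without replicate 3 of that group (0.41 ± 0.13, limma adjusted p = 0.0368) or replicate 2 of the 35-week Akt1+/- group (0.38 ± 0.13, limma adjusted p = 0.0473).

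Pdpk1 in fat was the third age difference. By A_52_P619138 the levels were 1.49, 1.61 and 1.37 in Wt and 1.14, 1.36 and 1.13 in Akt1+/- at 8 weeks, and 1.43, 1.65, 1.66 and 1.58 in Wt and 1.44, 1.70, 1.92 and 1.94 in Akt1+/- at 35 weeks. The ages did not overlap in Akt1+/- and overlapped in Wt, and the age difference was 0.31 ± 0.09 (limma adjusted p = 0.0315), although the interaction of genotype and age was not past the threshold (0.45 ± 0.18, limma adjusted p = 0.189). A_52_P111390 also rose (0.99 ± 0.13, limma adjusted p = 0.00048) and A_52_P111397 did not (-0.09 ± 0.10, limma adjusted p = 0.535). The call of the brightest probe was lost in 10 of 25 alternative analyses, 8 of which left out 1 array (replicates 1 and 3 of each 8-week group, 2 and 3 of the 35-week Wt and 3 and 4 of the 35-week Akt1+/- group, limma adjusted p = 0.0550 to 0.0754), with differences from 0.28 to 0.40 across all 25. In liver A_52_P619138 rose with age as well (0.19 ± 0.06, limma adjusted p = 0.0366), with the age difference of the brightest liver probe at 0.22 ± 0.24 (limma adjusted p = 0.512), and in muscle A_52_P111390 rose by 0.50 ± 0.11 (limma adjusted p = 0.00438) beside -0.04 ± 0.11 for A_52_P619138. Of the probes that did not stand for a gene, Pik3r1 probe A_52_P307938 was 1 further call, higher at 35 weeks in muscle (0.56 ± 0.18, limma adjusted p = 0.0365).

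Among the other pathway genes, past the threshold were 10 of 31 in liver (5 lower and 5 higher), 12 of 32 in muscle (6 lower and 6 higher) and 5 of 33 in fat (4 lower and 1 higher), shares near the backgrounds of 35.0%, 30.9% and 19.0%. In liver the adaptor Cbl (1.10 ± 0.14) and Insrr (0.86 ± 0.14) rose and Grb10 (-0.94 ± 0.07) and the docking protein Gab1 (-0.71 ± 0.09) fell. In muscle Grb14 (0.70 ± 0.13) and Irs3 (0.68 ± 0.15) rose, and Ptprf (-0.67 ± 0.08) fell. In fat Gab1 (-0.64 ± 0.09) and the leukocyte catalytic subunits Pik3cg (-0.61 ± 0.10) and Pik3cd (-0.44 ± 0.12) fell. The macrophage markers in fat summed to 7.62 to 7.91 at 8 weeks and 7.63 to 8.08 at 35 weeks.

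The effects of genotype and of age on the 7 genes were also compared between tissues in 1 fit of all 42 arrays. By limma 0 of 7 genes had a genotype difference that differed between liver and muscle, between liver and fat or between muscle and fat, where the backgrounds were 0.952%, 4.19% and 0.762% and the counts at an unadjusted p below 0.05 were 0, 0 and 2. For age the counts were again 0 of 7, with backgrounds of 18.5%, 16.1% and 16.2% and 1, 0 and 2 genes at an unadjusted p below 0.05. The nearest to the threshold was Pik3ca, whose age difference was lower in muscle than in fat by -0.29 ± 0.10 (limma adjusted p = 0.0501). The next was Pdpk1, at -0.35 ± 0.13 in the same comparison (limma adjusted p = 0.0607). By probe, 0 of 18 differed in genotype effect between liver and muscle (0.716%) and between muscle and fat (0.568%) and 1 between liver and fat (3.70%), Pdpk1 A_52_P111390 (1.46 ± 0.25, limma adjusted p = 0.00112). In age effect 2 of 18 probes differed between liver and muscle (17.5%), 2 between liver and fat (13.9%) and 0 between muscle and fat (16.2%). The order of Igf1r, Irs1, Pik3ca and Pdpk1 across tissues thus stood beside genotype and age differences of these genes that did not differ between tissues past the threshold by their brightest probes.

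The genes most like each member were found by the Pearson correlation of the 12 group means over 19954 genes, which share arrays and are dominated by the 3 tissues. Igf1r was most like Slc2a4, the insulin-responsive glucose transporter, and Wipi1, each with r = 0.997. Irs1 was most like Fndc5 (0.989) and Dnajb6 (0.987). Pik3ca was most like AW324464 (0.991) and B230120H23Rik (0.990), Pik3cb like Tmem110 (0.993) and Rhoa (0.990), and Pdpk1 like 5033430I15Rik (0.983) and 9130011E15Rik (0.982). The 2 members with no called difference between tissues had no such close match, with Nup98 (0.886) and Dnd1 (0.851) for Insr and the unnamed probe A_52_P836776 (0.785) and Podnl1 (0.769) for Pik3r1.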

How the data were processed

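One-colour Agilent arrays of 3 tissues were analysed, 42 in all. The deposited scanner files hold spot intensity, background-subtracted by the authors with Feature Extraction (version 9.1 in the labels, 9.5.3.1 in the file headers). The authors' deposited series table holds log2 values close to the same signals scaled to the 75th percentile, and was used as an alternative.

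Processed intensities were taken to log2 and the 75th percentile of each array was subtracted. Control and outlier-flagged spots were left out, and a probe was kept when well above background on 3 or more arrays of some group. The brightest probe stood for a gene. Limma 3.58.1 (R 4.3.3) was fitted per tissue with 1 mean per genotype and age, and over all 42 arrays for tissues, with Benjamini-Hochberg adjustment over all genes or, where stated, all probes, at 0.05. Fits were tested on simulated arrays with independent noise and no slide or replicate effects, so that these effects were not covered. Named were all members and their probes, at most 4 called pathway genes per comparison (some that the counts include are not reported here), and the 2 genes most like each member. Members and lists were chosen with earlier results of these data known. Alternatives covered scaling, background, filters, probes, slide and replicate blocks and each array left out. Promoters are RefSeq's on GRCm38.p6 (Python 3.11.15), and 7 of the 8 members had 1 or 2. Replicate numbers of the 2 genotypes were checked for pairing by the correlation of deviations from group means. At 35 weeks every pair was above 0.1 in liver (r = 0.151 to 0.407) and muscle (0.188 to 0.401) and 3 of 4 were in fat (0.090 to 0.280), with 12 of 12 arrays closest to their own number, and the numbers were taken as pairs in liver and muscle. At 8 weeks none was (-0.194 to 0.059, with 1 of 9 closest to its own number). Between tissues 22 of 24 pairs at 35 weeks (-0.019 to 0.284) and 13 of 18 at 8 weeks (-0.031 to 0.147) were closest to their own number. The main tissue fit took all arrays as independent, and the replicate block was an alternative to it. On every 35-week array the replicate number was also the position on the slide, so that matched animals and shared positions cannot be told apart. The number of arrays limits the precision.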

Additional observations from a re-analysis of the deposited data

Results flagged for a closer look

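Each flagged value is given without an explanation. In 8 of 100 groups of 4 arrays 1 array stood far from the other 3, and chance flags about 1 in 20 groups. For Igf1r these were the level of A_51_P318365 on replicate 2 of the 35-week Wt muscles, -0.75 against -0.57 to -0.55 on the others, and of the same probe on replicate 1 of the 35-week Akt1+/- fat, -0.85 against -1.43. On that same array A_51_P474538 was at 0.49 against -0.35 to -0.22. The fourth was A_52_P634111 on replicate 2 of the 35-week Wt fat, -4.28 against -3.66 to -3.62.

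For Irs1, A_52_P171212 was at -3.71 on replicate 2 of the 35-week Wt livers, against -3.17 to -3.14, and at -2.14 on replicate 2 of the 35-week Akt1+/- fat, against -3.31 to -3.17. A_52_P175242 was at 2.33 on replicate 4 of the 35-week Wt fat, against 3.12 to 3.27. Pik3r1 had 1 such array, replicate 4 of the 35-week Akt1+/- muscles, with A_52_P235476 at 0.41 against -0.60 to -0.44.

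In 5 cases the effect of genotype or age on a probe differed between tissues by limma over all probes. The age difference of Igf1r A_51_P318365 was 0.63 ± 0.19 above that in muscle (limma adjusted p = 0.0207) and 0.63 ± 0.19 above that in fat (limma adjusted p = 0.0239) in liver. The age difference of Irs1 A_52_P171212 was lower in liver than in muscle (-0.76 ± 0.27, limma adjusted p = 0.0458). Pdpk1 A_52_P111390 had a genotype difference that was 1.46 ± 0.25 higher in liver than in fat (limma adjusted p = 0.00112) and an age difference that was lower in liver than in fat (-0.77 ± 0.25, limma adjusted p = 0.0377).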

How the results depend on the processing

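Of the results under each alternative, 4022 stayed on their side of the threshold (243 of them uncalled differences whose sign changed), 49 lost their call, 28 gained one and 18 reversed with a call on at least 1 side, and the cause was not tested. The count of members past the threshold for age was 1 in fat and became 0 with median scaling and 0 with no filter on dim probes. In liver it was 2 and became 1 in 1 fit over all 42 arrays, 1 with the authors' values, 1 with the mean of probes, 1 with normexp and quantile normalization and 1 with the replicate block, and 0 with the methods' two-way test, 0 with no filter on dim probes and 0 with slide as a random block. In muscle it was 0 and became 1 in 1 fit over all 42 arrays, 1 with median scaling and 1 with the replicate block. The count for genotype in fat was 0 and became 1 with the mean of probes, both over all ages and at 35 weeks. Differences in age effect between liver and muscle and between muscle and fat each went from 0 to 1 member with normexp and quantile normalization.

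Leaving out 1 array at a time gave age counts of 0 to 1 in fat, 0 to 2 in liver and 0 to 1 in muscle. Genotype counts were 0 to 1 in liver, 0 in muscle and 0 in fat over both ages, 0 to 1 in liver, 0 to 1 in muscle and 0 in fat for the 8-week groups, and 0 in each at 35 weeks. The liver count of 1 was that of Pdpk1 without replicate 2 of the 8-week Akt1+/- group, and the muscle count of 1 came without replicate 1 of the 8-week Akt1+/- group. Interaction counts were 0 to 1 in liver and 0 in the others, and tissue counts were 5 to 6 between liver and muscle and 5 in the other pairs.

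With the replicate number as a block, Akt1 was at -0.56 in fat (adjusted p = 0.0701) and -0.58 in muscle (adjusted p = 0.0381), and with slide as a random block at -0.58 in muscle (adjusted p = 0.0419). The block changed no genotype or tissue count of members.

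Of the probe alternatives, those by a single probe were chosen after seeing the data, and the mean of probes was not. For Igf1r the liver age difference reversed to 0.0071 with the mean of probes and 0.41 by A_51_P318365, and by that probe its age effect in liver exceeded that in fat by 0.63 and that in muscle by 0.63. For Pdpk1 the age difference reversed to -0.094 in fat by A_52_P111397 and 0.50 in muscle by A_52_P111390, the 35-week genotype difference in fat to -0.41 with the mean of probes and -1.37 by A_52_P111390, liver minus fat to 0.054 and 0.77 by the same 2, and liver minus muscle to 0.15 by A_52_P111390. For Pik3r1 the muscle age difference reversed to 0.56 by A_52_P307938, liver minus fat to -0.52 and liver minus muscle to -1.02 by A_52_P235476, and muscle minus fat to 0.31 with the mean of probes, 0.42 by A_51_P511236, 0.51 by A_52_P235476 and 0.43 by A_52_P307938. Signal over background limited 2 Igf1r probes in liver and 1 Pik3cb probe in liver and muscle to bounds.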
